A study of Saccharomyces cerevisiae with 4 samples.

Results

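The genes of the 26S proteasome of budding yeast, Saccharomyces cerevisiae, were compared between cells labelled hst3hst4 and cells labelled wild-type. The set holds 36 genes, chosen by name: the 14 subunits of the 20S core, 18 subunits of the 19S regulatory particle, the transcription factor RPN4, the assembly chaperone UMP1, and the proteasome-binding proteins BLM10 and ECM29. Each was read from the brightest probe set that the platform annotation gives to that gene alone, out of 5656 genes represented in this way. All 36 lay above the filter that left out the dimmest 20% of probe sets, and so belong to the 5271 genes tested. RNA was taken from cultures in the rich medium YPD, amplified from an oligo-dT primer and hybridised to 4 one-colour Affymetrix arrays. The 2 hst3hst4 arrays hold RNA from independent cultures of the strain YCB600, and the 2 wild-type arrays RNA from independent cultures of YCB617, both of the FY background. The labels state no mating type, marker or further allele for either strain, and each genotype rests on that 1 strain. The products of HST3 and HST4 are sirtuins, which use NAD to remove the acetyl group of lysine 56 of histone H3.

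The proteasome degrades proteins tagged with ubiquitin. Its 20S core is a barrel of outer rings of alpha subunits and inner rings of beta subunits, and the proteolytic sites face the inside. The 19S regulatory particle caps the barrel: its base holds a ring of ATPases that unfold substrates, and its lid holds the enzyme that removes ubiquitin. In yeast the transcription factor Rpn4 activates most proteasome genes through a shared promoter element. It is itself a short-lived proteasome substrate, which makes a negative feedback loop between proteasome activity and proteasome gene expression.

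No proteasome gene passed the test for a difference between the strains. At an adjusted p of 0.05 (limma, Benjamini-Hochberg over 7420 probe sets) 0 of 36 were called and 0 of 36 had an unadjusted p under 0.05. Over all genes tested 2.73% were called, 2.2% higher and 0.531% lower on the hst3hst4 arrays, and 19.2% had an unadjusted p under 0.05. The lowest adjusted p of a member was 0.270, that of PRE1. The log2 fold changes, hst3hst4 over wild-type on the log2(signal + 3.3) scale, ran from -0.35 to 0.36 with a median of 0.070, beside a median of -0.014 over all genes tested. Without wild-type replicate 2 the median of the members was -0.019, below the -0.0054 of all probe sets.

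On the deposited scale, with all 4 arrays, the 95% interval of the log2 fold change lay inside a 2-fold difference in both directions for all 36 genes and inside a 1.5-fold difference for 26 of them. The outermost bounds were -0.74 for PRE2 and 0.76 for RPT2. Under the scaling on hybridisation controls described below, the interval lay inside 2-fold for 26 of 36, and the highest bound was 1.26. In the pairwise comparison of the cultures that the design names, 144 array pairs over the 36 genes, the deposited signals never differed by 1.5-fold. The highest ratio was 1.48, for PRE2. Over all genes tested, 44% reached 1.5-fold in at least 1 of their 4 array pairs. That share was not matched for brightness: member signals ran from 60.2 to 957.5, and those of all genes tested from 0.5 to 15324. The median standard error of the members was 0.17, against 0.21 over all genes tested. Within strains, PRE5 alone among the members reached 1.5-fold, at 1.51 between the hst3hst4 cultures.

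**Figure D1:**
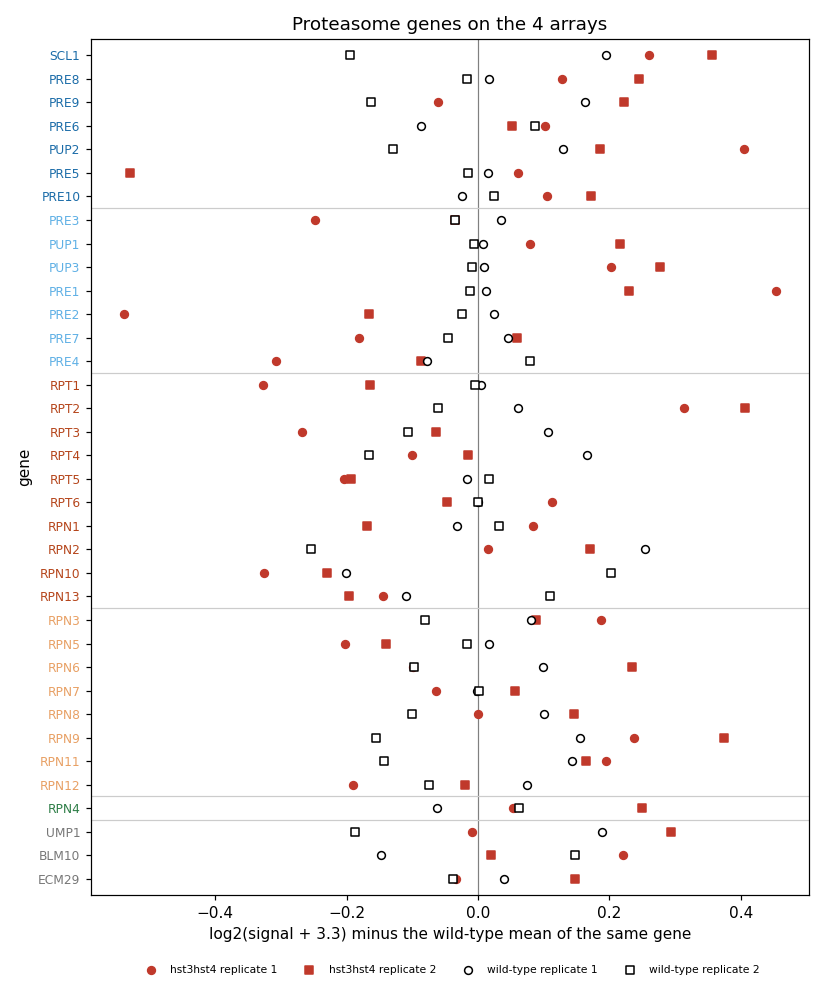
Log2(signal + 3.3) of each of the 36 genes on each of the 4 arrays, minus the mean of the wild-type arrays for the same gene. Filled symbols are the hst3hst4 arrays, open symbols the wild-type arrays, and the symbols mix in 18 genes while the strains are apart in the other 18. Over all genes tested, both hst3hst4 signals were above both wild-type signals in 25.1% and below them in 27.4%.

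The whole series gives the following limits. All arrays had been scaled to the same trimmed mean signal, so values are relative to the average gene. On 9 bacterial and phage control probe sets the hst3hst4 arrays were lower, at a mean log2 difference of -0.363, and scaling on them, which was tried once the data had been seen, put the median of all tested probe sets at 0.35. The 3'/5' signal ratio of the control probe sets was lower on both hst3hst4 arrays for the TATA-binding protein gene (3.82 and 3.7 against 4.64 and 5.2). It was higher on both for SRB4 (2.34 and 1.9 against 1.87 and 1.63), and overlapped for ACT1 (1.73 and 1.78 against 1.70 and 1.88). The part of this ratio in the values below was not tested. The HST3 signal was 0.4 and 0.5 in the hst3hst4 cultures, against 13.7 and 25.3 in the wild-type cultures. HST4 went against the labels, with 38.0 and 39.3 against 3.6 and 0.9, and the place of its probes relative to a deletion is unknown here. The directions below are therefore those of the libraries labelled hst3hst4 against those labelled wild-type. In RNA from whole cultures, fewer cells that express a gene and less RNA per cell cannot be told apart.

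The alpha ring was taken first. Its subunits form the gate of the barrel and dock the regulatory particles. Of 7 alpha genes, 6 had a log2 fold change above 0 and 1 below, none of them called, with a median of 0.14. SCL1, the alpha 1 subunit (YGL011C, chromosome 7, 474489 to 475247 in assembly R64), gave signals of 329 and 351 in the hst3hst4 cultures, against 314 and 239 in the wild-type cultures. Both hst3hst4 signals were above both wild-type signals, but the gap between the wild-type cultures was wider than that between hst3hst4 replicate 1 and wild-type replicate 1, and the log2 fold change of 0.31 (SE 0.18, 95% interval -0.11 to 0.72) had an adjusted p of 0.378 in limma. PUP2, the alpha 5 subunit (YGR253C, chromosome 7, 998358 to 999140), gave signals of 272 and 233 against 224 and 187 in the same order of arrays and a log2 fold change of 0.30 (adjusted p = 0.387, limma).

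PRE8, the alpha 2 subunit, had means of 863 ± 49.6 against 757 ± 12.5 (SD, n = 2 each) and PRE10, the alpha 7 subunit, had means of 428 ± 14.4 against 389 ± 9.40 (SD, n = 2 each). In both genes the hst3hst4 signals lay above the wild-type signals without overlap, at log2 fold changes of 0.19 and 0.14. For PRE9, the alpha 3 subunit and the core subunit that yeast can live without, the signals were 265 and 323 against 309.9 and 247 and the strains overlapped (log2 fold change 0.081). PRE6, the alpha 4 subunit, also overlapped, with signals of 815 and 788 against 715 and 807 (log2 fold change 0.077). PRE5, the alpha 6 subunit, was the alpha gene with a value below 0. Its signals of 622 and 412 against 603 and 590.2 show that this came from hst3hst4 replicate 2, since replicate 1 was above both wild-type arrays, and its log2 fold change was -0.23 (SE 0.20), or 0.060 without hst3hst4 replicate 2.

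The beta ring carries the proteolytic sites. Of 7 beta genes, 3 were above 0 and 4 below, with a median of -0.061 and no call. The values of the catalytic subunits lay on both sides of 0. PRE2, the beta 5 subunit with the chymotrypsin-like site (YPR103W, chromosome 16, 732349 to 733212), had signals of 526 and 682 in the hst3hst4 cultures, against 779 and 753 in the wild-type cultures. Both hst3hst4 signals were below both wild-type signals, and the log2 fold change of -0.35 (SE 0.17, 95% interval -0.74 to 0.030, limma adjusted p = 0.281) was the lowest of the 36. Without hst3hst4 replicate 1 its value was -0.17, with PRE5 then lowest at -0.53, and without hst3hst4 replicate 2 it was -0.54. PRE3, the beta 1 subunit with the caspase-like site, had signals of 516 and 599 against 628 and 599, and the strains overlapped (log2 fold change -0.14). PUP1, the beta 2 subunit with the trypsin-like site, had signals of 502 and 553 against 478 and 473, with the strains apart in the other direction (log2 fold change 0.15).

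The remaining beta subunits have no active site. PRE1, the beta 4 subunit (YER012W, chromosome 5, 177835 to 178431), had signals of 431 and 369 in the hst3hst4 cultures, against 317 and 312 in the wild-type cultures. The wild-type cultures were close and both hst3hst4 signals stood above them, at a log2 fold change of 0.34 (SE 0.16, 95% interval -0.020 to 0.70), with the adjusted p given above. PUP3, the beta 3 subunit, had means of 933 ± 34.1 against 789.7 ± 6.93 (SD, n = 2 each), again with no overlap (log2 fold change 0.24, limma adjusted p = 0.358). PRE4, the beta 7 subunit, was apart in the other direction with signals of 469 and 547 against 551 and 614 (log2 fold change -0.20), the nearest 2 values being almost equal. PRE7, the beta 6 subunit, overlapped at signals of 319 and 377 against 374 and 351 (log2 fold change -0.061).

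**Figure D2:**
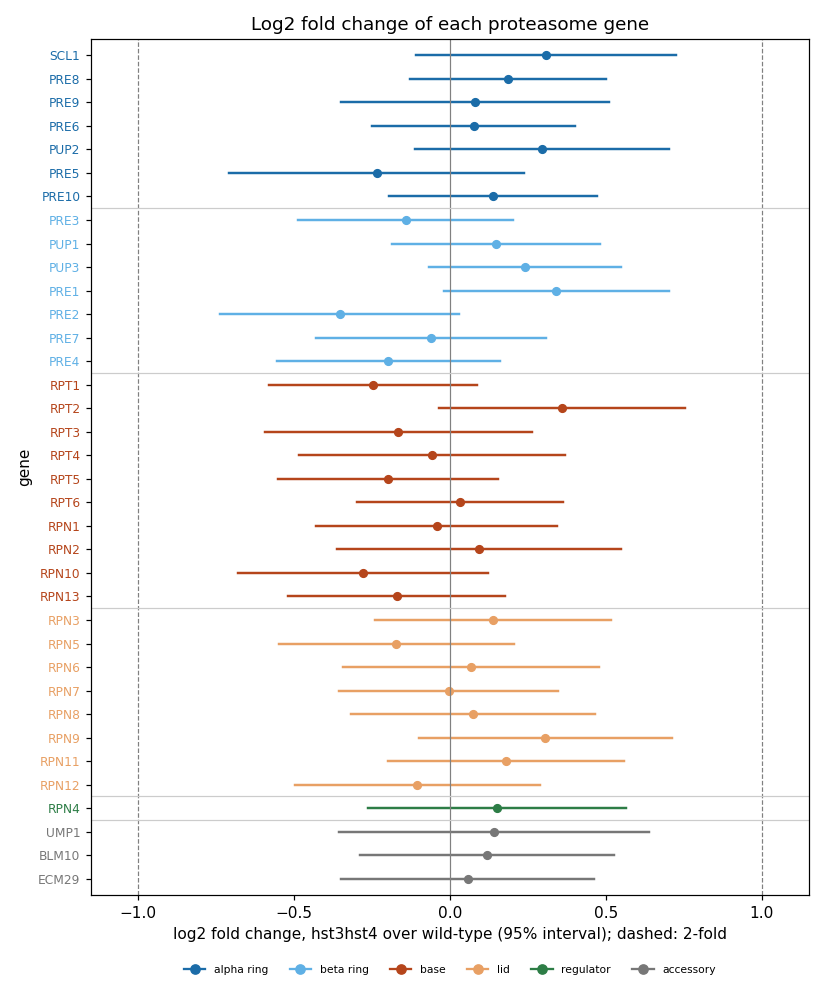
Log2 fold change of each of the 36 genes, hst3hst4 over wild-type, with its 95% interval from limma, coloured by place in the complex. Every interval crosses 0 and none reaches the dashed lines at a 2-fold difference.

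In the base of the regulatory particle, 7 of 10 genes had values below 0 and 3 above, none called, with a median of -0.11. RPT2 (YDL007W, chromosome 4, 438047 to 439360) is an ATPase whose tail takes part in opening the gate of the core. It was the member with the highest log2 fold change of the 36. Its signals were 124 and 132 in the hst3hst4 cultures, against 103 and 94.5 in the wild-type cultures, with no overlap, and the log2 fold change was 0.36 (SE 0.17, limma adjusted p = 0.288). Its neighbour in the ATPase ring, RPT1 (YKL145W, chromosome 11, 174213 to 175616), had signals of 493 and 552 against 621 and 617, apart in the other direction (log2 fold change -0.25, limma adjusted p = 0.380). RPT5 was lower as well on its brightest probe set, with means of 219.7 ± 1.13 against 253 ± 4.17 (SD, n = 2 each) and a log2 fold change of -0.20. The further tested probe sets of RPT5 overlapped between the strains, at 0.17 and -0.23. The other ATPases overlapped between the strains: RPT3 had a log2 fold change of -0.17, RPT4 of -0.058 and RPT6 of 0.033. The 6 ATPases act as 1 ring, and their values ran from -0.25 to 0.36.

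The other base subunits are scaffolds and ubiquitin receptors. RPN10, a receptor for ubiquitin chains (YHR200W, chromosome 8, 499079 to 499885), had signals of 518 and 554 in the hst3hst4 cultures, against 565 and 748 in the wild-type cultures. Wild-type replicate 2 stood above the other 3 arrays, and the log2 fold change was -0.28 (SE 0.17, limma adjusted p = 0.412). RPN13, a second receptor, had signals of 494 and 476 against 506 and 589.5, both hst3hst4 arrays being lower (log2 fold change -0.17). The scaffold RPN1 overlapped, with signals of 238 and 199 against 219 and 229 and a log2 fold change of -0.043. The scaffold RPN2 also overlapped, with signals of 417 and 465 against 493 and 345 (log2 fold change 0.093), and there the wild-type cultures were the outermost pair.

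Of the 8 lid genes in the set, 5 were above 0 and 3 below, none called, with a median of 0.070. SEM1, read with the proteasome-bound proteins and not with the lid, had a log2 fold change of 0.25. RPN11, the enzyme that cuts ubiquitin off the substrate (YFR004W, chromosome 6, 153393 to 154313), had signals of 365 and 357 in the hst3hst4 cultures, against 352 and 288 in the wild-type cultures. The hst3hst4 signals were above both wild-type signals by a small margin over wild-type replicate 1, and the log2 fold change was 0.18 (SE 0.16, limma adjusted p = 0.577). RPN9, a structural lid subunit (YDR427W, chromosome 4, 1322205 to 1323386), had signals of 252 and 278 against 238 and 191, the hst3hst4 arrays again being higher (log2 fold change 0.31, limma adjusted p = 0.371). RPN3 had signals of 204 and 190.1 against 189 and 169, where hst3hst4 replicate 2 and wild-type replicate 1 were nearly the same, and a log2 fold change of 0.14. RPN5 was apart in the other direction, with signals of 129.5 and 135 against 151 and 148 and a log2 fold change of -0.17.

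The other lid genes overlapped between the strains. RPN7 had signals of 283 and 308 against 295 and 296, and its log2 fold change of -0.0037 (95% interval -0.35 to 0.35) was the closest to 0 of the 36. RPN6, which clamps the lid to the core, had a log2 fold change of 0.068, RPN8, the partner of RPN11, one of 0.073, and RPN12, the last subunit to join the lid, one of -0.10.

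RPN4 itself (YDL020C, chromosome 4, 415113 to 416708) did not pass the test. Its signals were 98.4 and 113 in the hst3hst4 cultures, against 90.6 and 99.1 in the wild-type cultures. Hst3hst4 replicate 1 lay between the 2 wild-type cultures and replicate 2 above them, for a log2 fold change of 0.15 (SE 0.18, 95% interval -0.26 to 0.57, limma adjusted p = 0.681). With the deposited scaling, the interval places the RPN4 transcript on the hst3hst4 arrays between 0.833 and 1.48 times its wild-type level, on the log2(signal + 3.3) scale. Under the scaling on hybridisation controls its log2 fold change was 0.51 (SE 0.28), and this range does not apply. The arrays measure transcripts, and the amount of Rpn4 protein, which is set largely by its degradation, was not measured.

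The accessory members overlapped between the strains. UMP1, the chaperone that matures the core and is then degraded by it, had signals of 68.6 and 85.4 in the hst3hst4 cultures, against 79.1 and 60.2 in the wild-type cultures (log2 fold change 0.14). BLM10, which caps the core in place of the regulatory particle, had signals of 288 and 249.8 against 222 and 273 (log2 fold change 0.12), and ECM29, which tethers core and regulatory particle, had means of 107 ± 9.83 against 103 ± 4.03 (SD, n = 2 each) (log2 fold change 0.058). Of RPN4, UMP1, BLM10 and ECM29, no gene had its 2 strains apart on its brightest probe set.

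The strains were apart in 18 of 36 genes. Both hst3hst4 signals were above both wild-type signals in 11 of 36 genes, against 25.1% of all genes tested, and below them in 7 of 36, against 27.4%. Of the 11 genes, 7 encode core subunits (SCL1, PRE8, PUP2, PRE10, PUP1, PUP3 and PRE1) and 4 encode subunits of the regulatory particle (RPT2, RPN3, RPN9 and RPN11). Of the 7 genes, 2 encode core subunits (PRE2 and PRE4) and 5 encode subunits of the regulatory particle (RPT1, RPT5, RPN10, RPN13 and RPN5). Of the members, 29 lay between the quartiles of all genes tested, -0.25 and 0.24, 5 above the upper and 2 below the lower one.

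**Figure D3:**
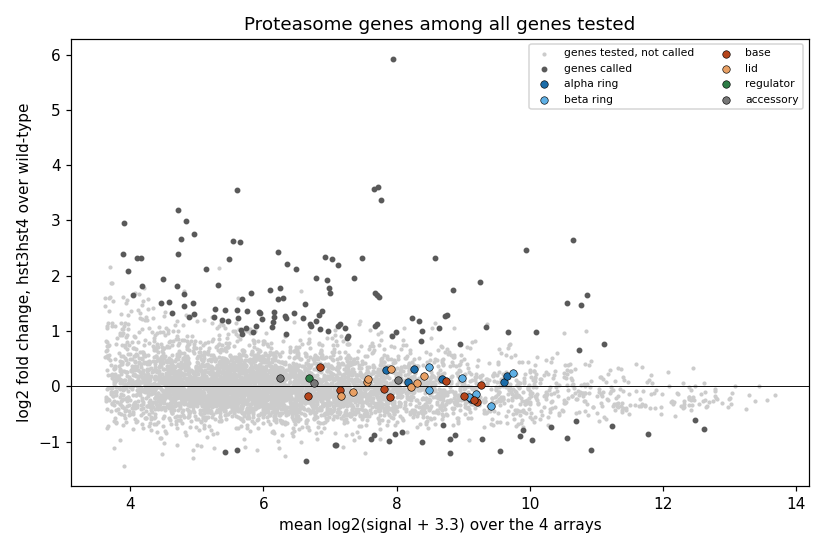
Log2 fold change, hst3hst4 over wild-type, against the mean log2(signal + 3.3) over the 4 arrays for the 5271 genes tested, with called genes in dark grey and the 36 proteasome genes in colour. The proteasome genes lie between -0.35 and 0.36. Of all genes tested, 67.6% lie within 0.36 of 0 in either direction.

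The core was then set against the regulatory particle. The 14 core genes had a median log2 fold change of 0.11 (9 above 0, 5 below), the 18 genes of the regulatory particle one of -0.023 (8 above 0, 10 below), a difference between medians of 0.13. In the 4 array pairs this difference was 0.18, 0.057, 0.16 and 0.13, above 0 in each. Pairs share arrays and are not independent, and between the 2 wild-type cultures alone the same difference was 0.11 (replicate 2 minus replicate 1), and between the 2 hst3hst4 cultures 0.012. With means over the genes in place of medians the difference was 0.070. No test was made of it, as the genes are not replicates. With 2 arrays a strain, an exact two-sided permutation test over arrays cannot go below p = 0.333. The medians of the regulatory particle and of its base rest in part on RPT5, taken at -0.20 from its brightest probe set. Its other tested probe sets gave 0.17 and -0.23, and the medians were not computed with them.

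Within both particles the parts had different medians. The alpha ring (0.14) and the lid (0.070) had the higher medians, and the beta ring (-0.061) and the base (-0.11) the lower. Against the base alone the core median was higher by 0.22, and against the lid alone by 0.039. By array pair, on the deposited scale and not under the scaling on controls given below, the median of the alpha ring was above 0 in each of 4 (0.10 to 0.26) and that of the base below 0 in each (-0.16 to -0.055). Over all genes tested the medians of these pairs ran from -0.076 to 0.045. The alpha ring was above the median of all genes in each pair, and the base below it in 3 of 4, the exception being hst3hst4 replicate 1 with wild-type replicate 2 (-0.055 against -0.076). The beta ring ran from -0.23 to 0.10, being below 0 with hst3hst4 replicate 1 and above 0 with replicate 2. The lid ran from -0.081 to 0.21.

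Cultures of 1 strain also differed from each other. The absolute log2 difference between the wild-type cultures had a median of 0.14 over the 36 genes and that between the hst3hst4 cultures one of 0.16. In the 4 pairs of an hst3hst4 and a wild-type array the same median, also between single arrays, ran from 0.14 to 0.21. The lid was lower on wild-type replicate 2 than on replicate 1 by a median of -0.18, and the beta ring was higher on hst3hst4 replicate 2 than on replicate 1 by a median of 0.21. Over all genes tested these medians were 0.039 and 0.096.

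**Figure D4:**
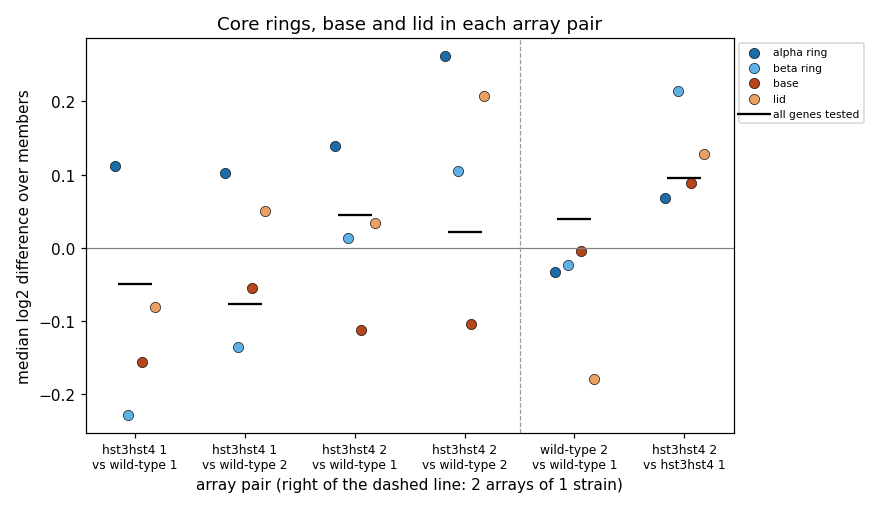
Median log2 difference over the genes of the alpha ring, beta ring, base and lid in each of the 4 pairs of an hst3hst4 and a wild-type array, and, right of the dashed line, between the arrays of 1 strain; black bars mark all genes tested. The alpha ring is above 0 and the base below 0 in all 4 strain pairs, and the base is below the bar for all genes in 3 of them. Under a scaling on hybridisation controls all 36 genes are above 0.

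Scaling on the hybridisation controls, which raises every gene alike, put all 36 values above 0, with a median of 0.43 beside 0.35 for all probe sets. It called SCL1, PUP3, PRE1 and RPN9 (lowest limma adjusted p = 0.0253) among 1189 probe sets called. The signs of 15 members differed between the scalings.

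Other probe sets were present for 4 members, 13 in all, of which 9 were above the filter and 0 were called. For PRE3 they gave log2 fold changes of 0.021 and -0.013, and for BLM10 0.014. RPT5 gave 0.17 and -0.23 beside -0.20 for its brightest probe set, so its sign depends on the probe set. ECM29 gave -0.72, -0.50, 0.14 and 0.28 beside 0.058. At -0.50 its strains were apart, with signals of 36 and 43.7 against 56.8 and 57.8 (unadjusted p = 0.0402, limma). At 0.28 they were apart in the other direction. The brightest probe sets of RPT5 and ECM29 have the type of name that Affymetrix gives to probe sets whose probes can match more than 1 transcript, and both values are uncertain for that reason. No member overlaps another gene of the RefSeq table.

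Genes that work around the proteasome were read from 3 further lists. Over all genes tested, as given above, 2.73% were called and 19.2% had an unadjusted p under 0.05. Of 15 genes for assembly chaperones and proteasome-bound proteins, 0 were called in limma and 2 had an unadjusted p under 0.05, with a median log2 fold change of 0.10. The highest were SPG5, a proteasome-binding protein of stationary phase, at 0.64, and TMA17, an assembly chaperone of the regulatory particle, at 0.54 (adjusted p = 0.227, limma). SPG5 had signals of 112 and 48.2 against 50.8 and 42, so its value came from hst3hst4 replicate 1. TMA17 had signals of 114 and 119.8 against 96.7 and 64.7, with wild-type replicate 2 lowest. The lowest were ADD66, a chaperone of the alpha ring, at -0.49 (adjusted p = 0.185, limma), and CIC1 at -0.30.

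Of 8 genes that control RPN4 or the stability of its product, 0 were called and 0 had an unadjusted p under 0.05 (median 0.16). YAP1, the oxidative stress factor, had signals of 31 and 56.4 against 26.7 and 33.2 and a log2 fold change of 0.45, and PDR1, a drug resistance factor, one of 0.25. UBR2 and MUB1, which together mark Rpn4 with ubiquitin, had the lowest values, -0.29 (adjusted p = 0.541, limma) and -0.26 (adjusted p = 0.499, limma). In UBR2 both hst3hst4 signals were below both wild-type signals (27.8 and 26.1 against 29.3 and 38.4). The same held for MUB1 (59.6 and 76.4 against 78.8 and 84.3), and for 27.4% of all genes tested. In 4 of the 8 genes both hst3hst4 signals were above both wild-type signals, against 25.1% of all genes tested. Among these 4 were RAD6 (log2 fold change 0.13) and UBR1 (0.20).

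Of 30 ubiquitin and shuttle genes, 1 rose, 0 fell and 29 did not pass, beside 2.2% of all genes tested that rose, and 5 had an unadjusted p under 0.05. The list had a median log2 fold change of 0.11. UBC5, a ubiquitin-conjugating enzyme for the degradation of short-lived and abnormal proteins, had signals of 144 and 133 in the hst3hst4 cultures, against 30.8 and 46 in the wild-type cultures. It rose by 1.79 on the log2 scale (SE 0.22, limma adjusted p = 0.0104), with both hst3hst4 signals above both wild-type signals. The call was lost with no filter, without the mean-variance trend, without hst3hst4 replicate 1 and without hst3hst4 replicate 2 (adjusted p from 0.0573 to 0.195), at values of 1.73 to 1.84. Its close paralog UBC4 had signals of 1405 and 1521 against 1241 and 1184 and a log2 fold change of 0.27 (adjusted p = 0.293, limma), and cross-hybridisation between these similar genes was not tested.

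UBI4, the polyubiquitin gene that supplies ubiquitin under stress, had signals of 452 and 623 in the hst3hst4 cultures, against 304 and 211 in the wild-type cultures. The strains were apart, and the log2 fold change of 1.06 (SE 0.23) just missed the threshold with an adjusted p of 0.0596 in limma. The adjusted p in limma was 0.0486 with the dimmest 40% left out and 0.0291 with the replicate number as a block. It was 0.127 with no filter and 0.173 without the mean-variance trend, and the gene passed under the scaling on hybridisation controls (1.42). With 1 array left out, the value ran from 0.80 (without wild-type replicate 2) to 1.32 (without wild-type replicate 1), and its adjusted p in limma from 0.00184 (without wild-type replicate 1) to 0.360 (without hst3hst4 replicate 2). Leaving out an array assumes that the lone array of a strain varies like the other strain's pair, and without wild-type replicate 1 851 probe sets were called in place of 196. RSP5, an essential ubiquitin ligase, and CUZ1, at signals of 10 and 7.80 against 14.3 and 11.6, had the lowest values of this list, -0.38 (adjusted p = 0.222, limma) and -0.41 (adjusted p = 0.550, limma).

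**Figure D5:**
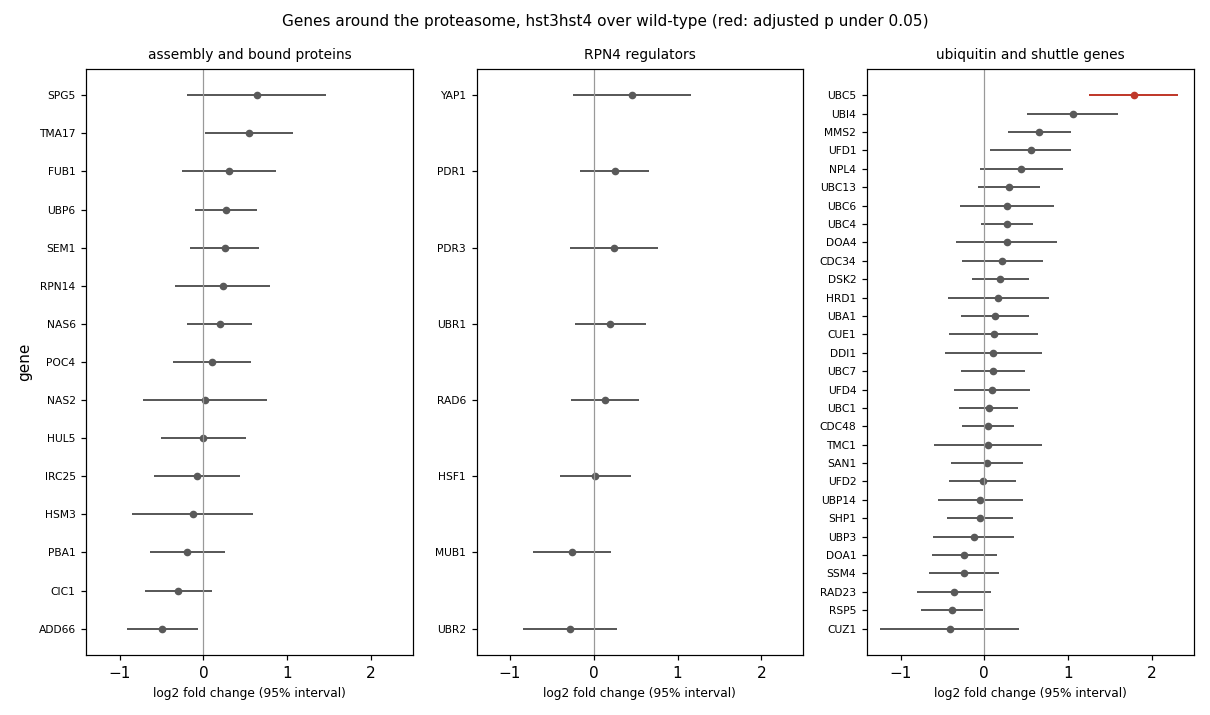
Log2 fold change with 95% interval, hst3hst4 over wild-type, for the genes of 3 lists around the proteasome: 15 assembly chaperones and bound proteins, 8 regulators of RPN4, and 30 ubiquitin and shuttle genes. UBC5, in red, is the gene that passed the test, and UBI4 comes next at 1.06.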

How the data were processed

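The authors deposited 1 linear signal intensity per probe set and array. They were made with GCOS 1.4 and MAS5, per the submitters' processing notes. The trimmed mean was 150.2 on each of 4 arrays. Of 9335 probe sets, 60 controls were left out; 6504 probe sets had 1 gene in the platform annotation, 328 several and 2443 none listed. Positions and symbols are those of the RefSeq table of the R64 assembly. Signals were put on the log2(signal + 3.3) scale, with the 10th percentile as pseudocount, which understates changes of dim genes. After the dimmest 20% were left out, 7420 probe sets were fitted by limma 3.58.1 under R 4.3.3 (lmFit, then eBayes with a trend), two-sided with 2 residual degrees of freedom, and tested on simulated data. Adjusted p-values are from that fit. Levels of different probe sets are not strictly comparable. They were ranked for the filter and for the choice of the brightest probe set, and were set against the log2 fold change.

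The members and lists were chosen with earlier results of these data known. All 36 members are named; of each further list, called genes and the 2 highest and lowest. UBC4, SEM1, RAD6 and UBR1 were named after their values were seen. The symbol DOA10 was matched to SSM4. Promoter sequences were not analysed here.

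Alternatives were quantile normalization, centring on the median, a pseudocount of 1 or 12.9, no filter or 40%, no trend, 1 probe set per gene, the replicate number as a block, and each array left out.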

Additional observations from a re-analysis of the deposited data

How the results depend on the processing

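Under the 13 alternatives listed with the methods, 0 of 36 members were called, with the lowest limma adjusted p at 0.0967, without wild-type replicate 1. The count over all probe sets was 196 as reported, 36 with no filter, 38 without a trend and, with 1 array left out, 9 (hst3hst4 replicate 1), 8 (hst3hst4 replicate 2), 851 (wild-type replicate 1) or 339 (wild-type replicate 2). Scaling on the hybridisation controls, an alternative chosen after seeing the data, called 1189 probe sets, 1166 higher and 23 lower (156 and 40 as reported), and 4 members, with medians of 0.47 for the core and 0.34 for the regulatory particle; it adds the same amount to all genes. The core median was 0.068 after centring on the array median, and ran from 0.090 to 0.18 with 1 array left out. The median of the regulatory particle ran from -0.081 to 0.014 and the core minus regulatory particle difference from 0.12 to 0.20. That difference was 0.070 with means, 0.22 against the base and 0.039 against the lid. The replicate number as a block gave 343 probe sets and 0 members. Deviations of same-numbered arrays correlated at r = -0.041. With 2 arrays a strain this value cannot show whether same-numbered cultures shared a day or batch. Of 504 member values under alternatives, 34 changed sign, 15 of them under the scaling on controls, and 500 stayed on their side of the threshold. The promoter motif count was not run. With 2 arrays a strain, the half-width of a member's 95% interval was 0.31 to 0.50 on the log2 scale. With 1 array left out, a lone array is assumed to vary like the other strain's pair.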

Other observations

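The 36 genes lie on 13 of the chromosomes, 20 on the forward and 16 on the reverse strand, with 6 members each on chromosomes 4 and 15. On chromosome 6, PRE4 of the core and RPN12 of the lid have 1 gene between them, and their log2 fold changes were -0.20 and -0.10. On chromosome 15, RPT4 of the base and RPN8 of the lid also have 1 gene between them, at -0.058 and 0.073. PRE2 and RPN7 on chromosome 16 have 4 genes between them, and their values were -0.35 and -0.0037. Across the 36 genes, which share the same 4 arrays and are not independent, the log2 fold change correlated with gene length at r = 0.054 and with mean log2 signal at r = -0.20. MMS2, the ubiquitin-conjugating variant that works with UBC13 in damage tolerance, had signals of 241 and 260.3 in the hst3hst4 cultures, against 161 and 154 in the wild-type cultures and a log2 fold change of 0.66 (limma adjusted p = 0.0797), and UBC13 one of 0.29 (limma adjusted p = 0.336). UFD1 and NPL4, partners of the unfoldase CDC48 in handing ubiquitinated proteins to the proteasome, had log2 fold changes of 0.55 (limma adjusted p = 0.189) and 0.44 (0.284), and CDC48 one of 0.045. Of the 30 ubiquitin and shuttle genes, from which these were taken, 21 had values above 0 and 9 below. Those below include RAD23 (-0.36), DOA1 (-0.24), SHP1 (-0.052) and UFD2 (-0.017). All genes named here from this list were chosen after their values were seen.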
